A study of Sinibotia superciliaris with 2 samples.

Results

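The receptor tyrosine kinases KIT, ERBB3 and CSF1R, which pigment cells of fish depend on, were followed in black and in yellow skin of the loach Sinibotia superciliaris. Their assembled transcripts (unigenes) were taken by the entry name of their best Swiss-Prot protein match, and 5 of the 124650 unigenes carried a name of these receptors. KIT was represented by 1 unigene, matched to zebrafish kita, and ERBB3 and CSF1R by 2 unigenes each. No unigene carried the names KIT or KITB themselves. A protein match was at hand for 5675 unigenes, so a receptor copy without one was not analysed here.

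The fish were wild-caught adults, on average 6.25 ± 0.30 g in weight and 8.75 ± 0.20 cm in length per the labels, where the meaning of ± is not given. Skin of either colour was sampled from 6 individuals, and the labels do not say whether their RNA was pooled. Each colour is 1 RNA sequencing library, with 35386871 reads for black skin and 38323075 for yellow skin. There is thus no replicate check and no test across fish, and every comparison below is between these libraries only. The unit of level is RPM, reads per 1000000 reads of the library. Ratios are black over yellow with 95% intervals in brackets that cover counting error only, each read pair counted once.

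Receptor tyrosine kinases sit in the cell membrane, bind a secreted ligand outside the cell and signal through a kinase domain inside it. KIT is the receptor for KIT ligand, and in zebrafish its copy kita is needed for melanophores, the black pigment cells, to migrate and survive. ERBB3 binds neuregulins, has little kinase activity of its own and signals together with partner receptors. In zebrafish its copy erbb3b is needed by Schwann cells and by the precursors of adult melanophores. CSF1R is the receptor for the growth factors CSF1 and IL34. In zebrafish a copy of it is needed by xanthophores, the yellow pigment cells, and it is also a receptor of macrophages.

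The deposited annotation gave partial receptor structures on each unigene. The KIT unigene, c110946_g1, had its best nucleotide and protein matches in kita of the carp Labeo rohita, and carried 2 predicted proteins on the same strand. The first spanned bases 126 to 887 with a signal peptide and an immunoglobulin domain. The second spanned bases 2111 to 4048 with an immunoglobulin domain and 2 predicted transmembrane helices. They were 1223 bases apart and in different reading frames. Immunoglobulin domains are the ligand-binding part of KIT and CSF1R.

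The ERBB3 unigenes matched different fish copies of the gene. The closest protein of c107082_g1 was zebrafish erbB-3b, and the closest nucleotide match of c111143_g2 was zebrafish erbb3a. Unigene c107082_g1 carried predicted proteins at bases 465 to 1769 and 2134 to 5172, the first with a signal peptide and the second with 1 transmembrane helix. Unigene c111143_g2 carried a single predicted protein of 806 codons at bases 462 to 2879, with a signal peptide and a transmembrane helix. Each of these proteins was annotated with the receptor L domain, which forms the ligand-binding site of ERBB receptors.

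For CSF1R, c103760_g2 matched the membrane-bound receptor of goldfish. Its predicted proteins lay on the reverse strand of the assembled sequence, 1 with a signal peptide and an immunoglobulin domain at bases 3462 to 4895 and 1 with a tyrosine kinase domain at bases 1688 to 2758. The other unigene, c98518_g1, carried a single predicted protein of 331 codons at bases 2 to 994 with a tyrosine kinase domain and a predicted signal peptide. Its closest protein was a predicted zebrafish CSF1R, while its closest nucleotide match was a CSF1R2-like gene of the Amazon molly. Its alignment score to the Swiss-Prot CSF1R entry was 425, against 867 for c103760_g2. Whether it is a second gene copy or a fragment of the first was not tested.

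**Figure D1:**
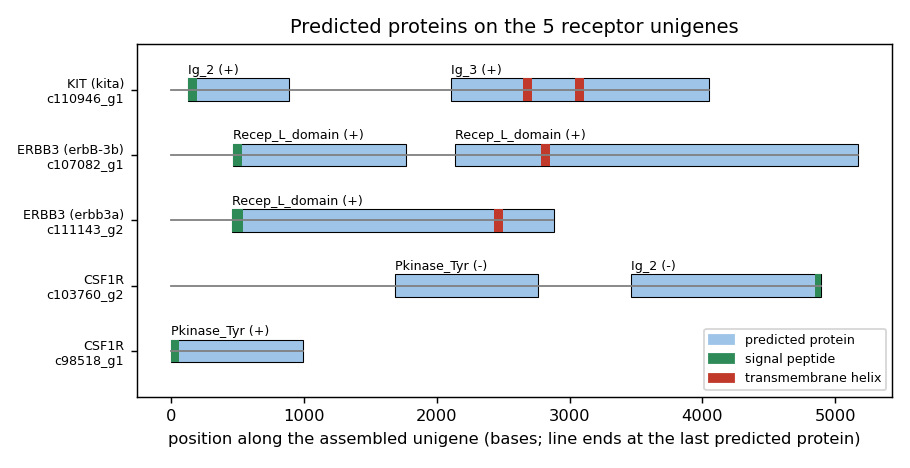
Predicted proteins (blue boxes) along the 5 receptor unigenes in bases from the start of the assembled sequence, with signal peptides in green, transmembrane helices in red, and the annotated domain and strand above each box. The KIT unigene and 1 unigene each of ERBB3 and CSF1R carry 2 predicted proteins with a gap between them, of 1223, 364 and 703 bases.

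KIT was at 91.6 RPM in the black library (3242 reads) and 65.7 RPM in the yellow library (2519 reads). Its level was thus higher in black skin, by a ratio of 1.39 (1.29 to 1.50). On the log2(RPM + 1) scale the difference was 0.47, and 13.9% of the 3644 annotated genes with a mean of at least 1 RPM had a larger one. All these genes together had a median log2 difference of 0.21, so KIT stood 0.27 above the bulk of annotated genes. Below, all genes means these annotated genes. Over all unigenes past the same minimum, annotated or not, the median was lower, at 0.14. In skin tissue, fewer cells of a type and less RNA per cell cannot be told apart, for KIT and for each gene below.

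ERBB3 was carried mostly by the erbb3b-matched copy. Unigene c107082_g1 was at 196 RPM in the black library (6935 reads) and 135 RPM in the yellow library (5190 reads), a ratio of 1.45 (1.37 to 1.52). The erbb3a-matched unigene, c111143_g2, was at 22.1 RPM in the black library (784 reads) and 15.7 RPM in the yellow library (601 reads), a ratio of 1.41 (1.21 to 1.65). Both copies were on the black side by nearly the same factor. The ratio of c107082_g1 divided by that of c111143_g2 was 1.02, and its interval, 0.873 to 1.21, held the value of equal ratios. The share of ERBB3 reads on c107082_g1 was 89.8% in the black library (Clopper-Pearson interval 88.8 to 90.8) and 89.6% in the yellow library (88.5 to 90.7). These shares are not corrected for transcript length, which the files do not give.

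CSF1R had the widest difference of the receptors. Unigene c103760_g2 was at 64.6 RPM in the black library (2288 reads) and 34.2 RPM in the yellow library (1313 reads), a ratio of 1.89 (1.71 to 2.08). Its log2 difference of 0.90 lay just under the 2-fold mark of 1. The other unigene, c98518_g1, was at 0.678 RPM in the black library (24 reads) and 0.600 RPM in the yellow library (23 reads). Its ratio of 1.13 had an interval of 0.461 to 2.79, so no difference was detectable at this depth, nor could one of the size seen in c103760_g2 be told from none. The ratio of c103760_g2 divided by that of c98518_g1 was 1.67 (0.711 to 4.26). Summed, CSF1R had a log2 difference of 0.89, and 1.34% of the 3644 annotated genes had a larger one.

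**Figure D2:**
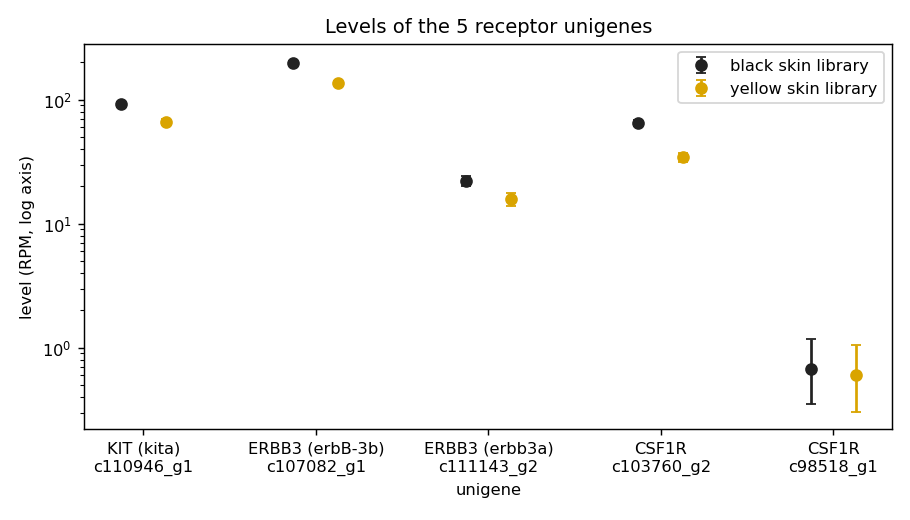
Level of each receptor unigene in RPM (log axis) in the black and yellow skin libraries, with exact Poisson intervals of counting error that count each read pair once. The values of KIT, both ERBB3 unigenes and c103760_g2 of CSF1R are higher in the black library, and those of c98518_g1 lie within each other's intervals. RPM is not per length, so heights of different unigenes are not compared.

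Of the 5 unigenes, 4 had a mean of at least 1 RPM, and c98518_g1 with a mean of 0.639 RPM did not. None of the 4 differed at least 2-fold on the log2(RPM + 1) scale. Over all unigenes past this minimum, 0.783% lay 2-fold or more to the black side and 0.302% to the yellow side. Summed by gene, none of the 3 receptors passed 2-fold, against 0.823% of annotated genes on the black side and 0.137% on the yellow side.

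All 3 receptors had an interval of the RPM ratio wholly above 1, but so did 49.6% of the annotated genes, and the count alone therefore says little about these receptors. The yellow library held 17.0% of its reads in the 2 most abundant unigenes, against 6.81% in the black library, which lowers every other level in yellow skin when levels are scaled to the library total. Trimmed-mean (TMM) scaling, which sets the bulk of unigenes equal, lowered every log2 ratio by 0.19. On that scale the ratio was 1.65 (1.50 to 1.81) for CSF1R, 1.27 (1.21 to 1.33) for ERBB3 and 1.23 (1.14 to 1.32) for KIT. The intervals of all 3 were still wholly above 1, as were those of 22.6% of annotated genes.

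**Figure D3:**
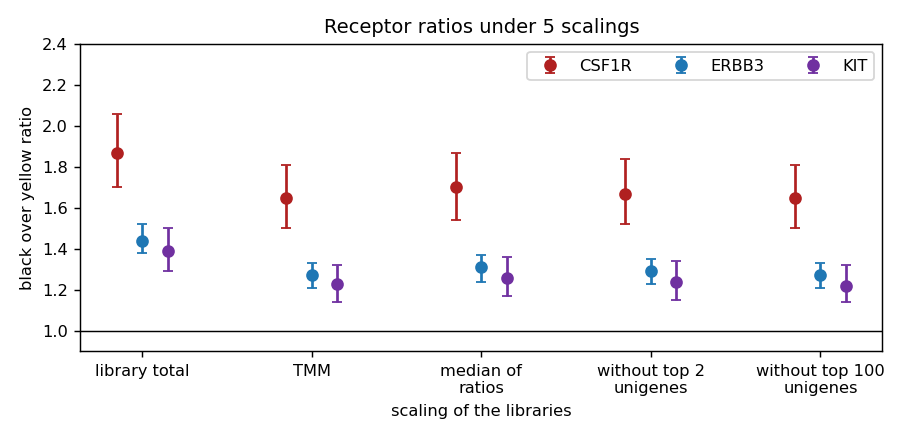
Black over yellow ratio of CSF1R, ERBB3 and KIT with the libraries scaled in 5 ways, with intervals of counting error. CSF1R lies between 1.65 and 1.87, ERBB3 between 1.27 and 1.44 and KIT between 1.22 and 1.39, and no interval reaches 1.

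Ratios of 2 genes can be divided by each other without any scaling of the libraries. The ratio of CSF1R was 1.34 times that of KIT (1.19 to 1.52) and 1.30 times that of ERBB3 (1.17 to 1.45), so CSF1R differed from both by more than counting error. ERBB3 and KIT did not differ detectably, with a ratio of ratios of 1.04 (0.948 to 1.13). In all, 14 such pairs were compared, without adjustment, chosen with the values known.

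The closest relatives of KIT and CSF1R in the annotation were FLT3, a receptor of blood cell precursors, and PDGFRA, a receptor of mesenchymal cells. FLT3 was at 6.81 RPM in the black library and 3.39 RPM in the yellow library, a ratio of 2.01 (1.47 to 2.76). Its ratio could not be told from that of CSF1R, since CSF1R over FLT3 was 0.933 (0.667 to 1.29), while KIT over FLT3 was 0.694 (0.499 to 0.951). PDGFRA, summed over its unigenes, was at 17.4 RPM in the black library and 13.4 RPM in the yellow library, a ratio of 1.30 (1.09 to 1.54), or 1.14 (0.962 to 1.35) with TMM scaling. Its unigenes were not alike: c106532_g4 had a ratio of 1.62 (1.25 to 2.10) and c106532_g5 one of 0.978 (0.755 to 1.27). Of its low unigenes, c95703_g1 (41 black and 40 yellow reads) had a ratio of 1.11 (0.570 to 2.17). The other, c95703_g3 (38 black and 13 yellow reads), had one of 3.17 (1.25 to 9.26). CSF1R exceeded the summed PDGFRA, with a ratio of ratios of 1.45 (1.19 to 1.76), and KIT did not detectably, at 1.08 (0.892 to 1.29).

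Among the partners and relatives of ERBB3, EGFR was at 27.2 RPM in the black library and 24.4 RPM in the yellow library. Its ratio of 1.11 (0.979 to 1.27) includes no difference, and the ratio of ERBB3 was 1.30 times that of EGFR (1.13 to 1.49). Unigene c110077_g2, named here after its values were seen, matched Xmrk by BLASTX and EGFR by BLASTP. Xmrk is the EGFR-derived receptor that drives melanoma in Xiphophorus fish. This unigene was at 178 RPM in the black library and 177 RPM in the yellow library, a ratio of 1.01 (0.958 to 1.06). It so stood below the bulk of annotated genes, whose median RPM ratio was 1.17. ERBB4, another neuregulin receptor, was low, with 71 black and 50 yellow reads over its unigenes and a ratio of 1.54 (0.896 to 2.68). Its unigene c98760_g2 had 57 black and 21 yellow reads, a ratio of 2.94 (1.41 to 6.65). Unigene c90352_g1 had 14 black and 18 yellow reads, a ratio of 0.842 (0.267 to 2.54). Unigene c83000_g1 had 0 black and 11 yellow reads, with an interval of 0 to 1.03. Both of these latter intervals hold 1, but with TMM scaling that of c83000_g1 was wholly below 1, at 0 to 0.910. No annotated unigene was named ERBB2, PDGFRB or after a ligand of KIT or CSF1R, and these genes were not analysed here.

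The neuregulins, ligands of ERBB3 and ERBB4, did not share the difference of their receptor. NRG1 was at 30.1 RPM in the black library and 31.4 RPM in the yellow library, a ratio of 0.958 (0.851 to 1.08). NRG2 was at 45.9 RPM in the black library and 43.0 RPM in the yellow library, a ratio of 1.07 (0.969 to 1.18). The ratio of ERBB3 was 1.51 times that of NRG1 (1.32 to 1.71) and 1.35 times that of NRG2 (1.21 to 1.51). HBEGF, a ligand of EGFR and ERBB4, was at 5.23 RPM in the black library and 3.47 RPM in the yellow library, a ratio of 1.51 (1.09 to 2.10). Scaling decided which of these intervals excluded 1. With TMM scaling that of HBEGF held 1, at 1.32 (0.956 to 1.84), and that of NRG1 was wholly below 1, at 0.842 (0.748 to 0.948). Of 16 listed ligands these 3 were annotated, with a median log2 difference of 0.09 beside 0.21 for all genes and 0 past 2-fold on the log2(RPM + 1) scale.

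**Figure D4:**
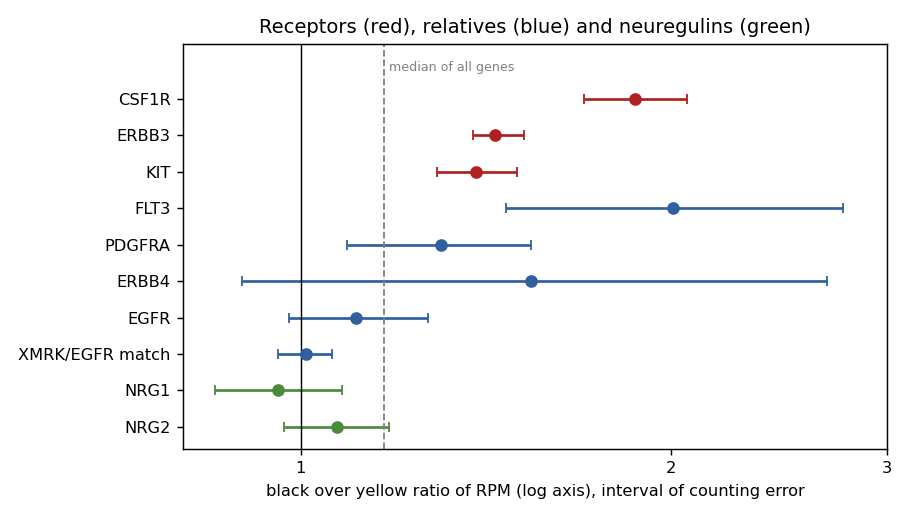
Black over yellow ratio of RPM (log axis) with intervals of counting error for the receptors (red), related receptors (blue) and neuregulins (green). The dashed line is the median ratio of annotated genes, 1.17; CSF1R, ERBB3 and KIT lie to its right with their whole interval, and the Xmrk-matched unigene to its left.

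Receptor tyrosine kinases as a family sat with the bulk of annotated genes. Of 55 other members listed, 36 were annotated and 32 passed the minimum, with 0 past 2-fold in either direction on the log2(RPM + 1) scale. Their median log2 difference was 0.24 beside 0.21 for all genes, and 17 of 32 exceeded the all-gene median. On the log2(RPM + 1) scale CSF1R had a larger difference than all 32, ERBB3 than 29 and KIT than 28, but by RPM ratio FLT3 at 2.01 stood above CSF1R at 1.87. Next to FLT3 at 0.83, the members on the black side included RYK, a Wnt receptor, at 31.1 RPM in the black and 20.4 RPM in the yellow library, and the fibroblast growth factor receptor FGFR3 at 75.4 RPM in the black and 51.3 RPM in the yellow library. MUSK, the receptor that organises the nerve-muscle synapse, was the lowest, at 4.86 RPM in the black library and 8.84 RPM in the yellow library, a ratio of 0.549 (0.419 to 0.716).

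The signalling genes behind the receptors were on the black side by small amounts. Of 78 listed, 32 were annotated and 30 passed the minimum, with 0 past 2-fold on the log2(RPM + 1) scale. All 30 had a log2 difference above 0, as did 80.3% of all genes, and 23 exceeded the all-gene median. The median was 0.32 beside 0.21 for all genes, and the range was 0.10 to 0.67. With TMM scaling 24 of 30 lay above 0, and the share of all genes on that scale is not given here. The adaptor GAB1 was at 9.07 RPM in the black library and 5.58 RPM in the yellow library, a ratio of 1.62 (1.26 to 2.09). PIK3CA, a catalytic subunit of phosphoinositide 3-kinase, was at 38.3 RPM in the black library and 25.3 RPM in the yellow library, a ratio of 1.52 (1.35 to 1.71). The Src-family kinase LYN had a ratio of 1.55 (1.27 to 1.89), and the kinase AKT1, at 72 black and 35 yellow reads, one of 2.23 (1.23 to 4.20), which is past 2-fold in RPM but not on the log2(RPM + 1) scale.

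**Figure D5:**
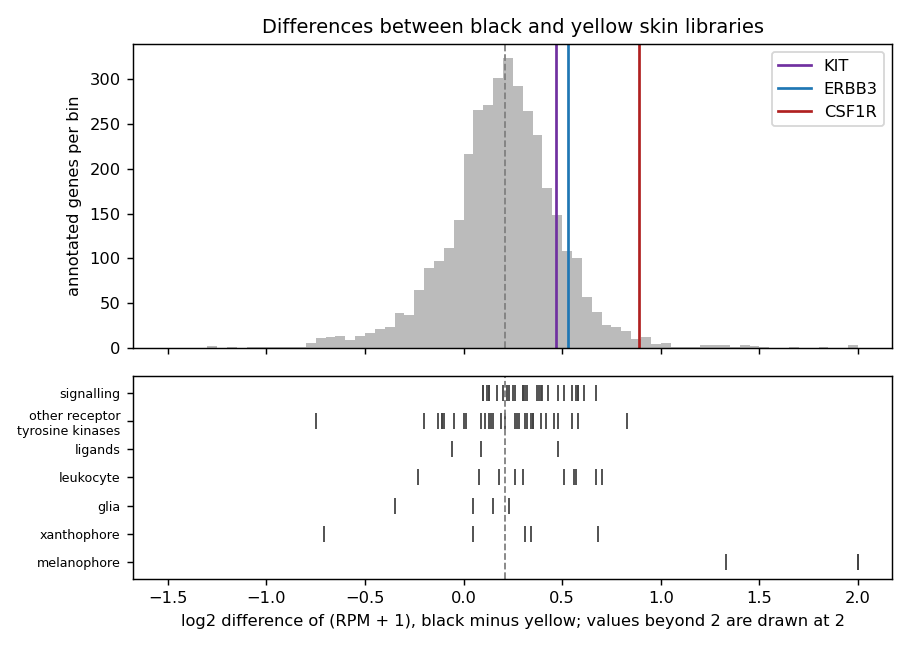
Log2 difference of RPM + 1, black minus yellow, for 3644 annotated genes (histogram, bins of 0.05) with KIT at 0.47, ERBB3 at 0.53 and CSF1R at 0.89, and below it each gene of 7 lists past the minimum as a tick. The dashed line is the median of all genes, 0.21; signalling genes lie between 0.10 and 0.67, and the melanophore markers lie at 1.33 and above.

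Markers of the cells that carry these receptors were read in the same libraries, and differed between them to unlike degrees. Their part in the receptors' values was not tested. Of 12 listed melanophore markers 4 were annotated, none at 0 reads, and their summed level was 21.5 RPM in the black library and 1.96 RPM in the yellow library. The gap of KIT was far smaller. PMEL, which forms the fibrils of melanosomes, had a ratio of 8.94 (5.81 to 14.4), and that of KIT was 0.156 times as large (0.0990 to 0.246). The mast cell, another carrier of KIT, was represented by 2 of 9 listed markers, summing to 3.53 RPM in the black library and 2.84 RPM in the yellow library. HDC, the enzyme that makes histamine, had a ratio of 1.28 (0.799 to 2.07).

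Of 12 listed xanthophore markers 5 were annotated, with a summed level of 46.5 RPM in the black library and 43.6 RPM in the yellow library, none at 0 reads. Without QDPR, the most abundant, the sum was 31.5 RPM in the black library and 31.9 RPM in the yellow library, so the side of the sum rests on that gene. Of the 5, 4 had a log2 difference above 0, as did 80.3% of all genes, so this count says little. SCARB1, which takes up carotenoids, had a ratio of 1.81 (1.28 to 2.58), QDPR, which recycles tetrahydrobiopterin, 1.29 (1.07 to 1.55), BCO2, which cleaves carotenoids, 1.28 (0.995 to 1.65) and SPR, an enzyme of pterin synthesis, 1.04 (0.855 to 1.27). The first enzyme of pteridine synthesis, GCH1, lay on the yellow side with a ratio of 0.580 (0.461 to 0.727). The ratio of CSF1R was 3.23 times that of GCH1 (2.52 to 4.15). Of the 5 markers only GCH1 had an RPM ratio below 1, and CSF1R was not divided by the other 4 in this way. The interval of SCARB1 held the CSF1R ratio of 1.87, and those of QDPR, BCO2 and SPR lay below it. With TMM scaling 3 of the 5 xanthophore markers lay above 0, and the share of all genes on that scale is not given here. The TMM-scaled interval of QDPR held 1, at 1.13 (0.945 to 1.36), and that of SCARB1 did not, at 1.59 (1.12 to 2.27). Of 35 listed macrophage and leukocyte markers 11 were annotated, none at 0 reads. They summed to 713 RPM in the black library and 531 RPM in the yellow library without APOE, the most abundant of them and also a gene of other cells. Most of that sum came from the chemokine receptors CCR9 (313 RPM in black, 219 RPM in yellow) and CXCR4 (142 RPM in black, 96.3 RPM in yellow). Their median log2 difference was 0.40 over 10 measured genes, none past 2-fold, and the difference of CSF1R was larger than each of these. CYBB, the oxidase subunit of phagocytes, was at 6.13 RPM in the black library and 3.47 RPM in the yellow library, a ratio of 1.77 (1.29 to 2.44). NCF1, another subunit of that oxidase, was at 1.95 RPM in the black library and 2.45 RPM in the yellow library, a ratio of 0.795 (0.497 to 1.26). IRF8, a transcription factor of macrophages and other leukocytes, had a ratio of 1.06 (0.995 to 1.12), under the all-gene median of 1.17. With TMM scaling the ratio of IRF8 was wholly below 1, at 0.929 (0.874 to 0.986). Among lymphocyte genes on the list, the T cell kinases LCK and ZAP70 had ratios of 1.72 (1.37 to 2.17) and 1.50 (1.36 to 1.65). The chemokine receptor CCR9 had one of 1.43 (1.37 to 1.49), and the kinase BTK one of 1.14 (0.926 to 1.41). The defining macrophage genes SPI1, MPEG1, MARCO and CD68 were not analysed here, as no annotated unigene was named after them.

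Of 15 listed Schwann cell and glia markers 4 were annotated, with a summed level of 174 RPM in the black library and 150.4 RPM in the yellow library, none at 0 reads. Without PMP22, the most abundant, the sum was 15.7 RPM in the black library and 15.9 RPM in the yellow library. Their log2 differences ran from -0.35 for SOX2 to 0.23 for PMP22, with a median of 0.10, and that of ERBB3 was larger than each. All 4 annotated keratinocyte markers of 16 listed were present, at a sum of 1262 RPM in the black library and 1026 RPM in the yellow library. The median log2 difference was 0.32 for these 4 and 0.41 for the 6 annotated iridophore markers, of 10 listed, and neither list had a gene past 2-fold. These 6 were the purine synthesis genes GART, PAICS, ATIC, PPAT and GMPS, and ALK, which is also on the receptor tyrosine kinase list. The iridophore genes PNP and LTK were not analysed here, as no annotated unigene was named after them. The median of 0.41 is thus mainly one of purine synthesis genes.

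The annotated genes closest to each receptor in log2 difference, among those with a mean of at least 10 RPM and within 2-fold of the receptor's mean, were looked up over the 2 libraries. For KIT they were CNOT3, BIG2 and COPB, among 779 candidates and each within 0.00100 of it. For ERBB3 they included DSG2 and PDIA1, among 314 candidates and within 0.000906. For CSF1R they were CO6A1, ANPRA and CNDP2, among 1053 candidates and within 0.0528. With 1 library per colour, likeness means only a similar ratio.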

How the data were processed

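The deposited signal, a single normalised value for each unigene in each library, carries no unit: the file headers name none, and the values read as RPM. The tools for assembly, alignment and counting were not given in the sources used here; the submitters' processing notes name the zebrafish build GRCz11 without its role. A unigene listed for several predicted proteins was used once (4131 repeated rows were dropped). Reads were recovered as whole multiples of the smallest step in each file, the lowest value being taken as 0 reads; 100.0% of values in either library were whole within 0.1 read. With 1 library per colour no count test could be run; by the rule of an interval wholly beyond 2-fold, 26 genes and 195 unigenes were called. Unigenes were named by the deposited annotation, whose entries are other than measurements, per the file headers, apart from its alignment score, whose type is not stated. Its last record breaks off, so it may be part of a longer table. Stems came from BLASTX, or BLASTP where empty, and were summed.

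Differences are log2(RPM + 1) with no further scaling, for a mean of at least 1 RPM. Intervals of ratios are Clopper-Pearson intervals conditional on the summed reads, counted in pairs, and those between 2 ratios are exact conditional odds ratio intervals on rounded pairs. Reads were paired in this way because unigenes with 2 reads (8897 in black, 9992 in yellow) outnumbered those with 1 (6459 and 7308). PCR copies would make intervals too narrow. TMM factors came from edgeR 4.0.16 in R 4.3.3, the rest from Python 3.11.15 with scipy 1.17.1; steps were tested on simulated data. Named were all 5 unigenes, up to 4 genes per list with the largest differences of which some are given, relatives and ligands, and the 3 nearest genes; PMEL, GCH1, CYBB, HDC and other markers come from these lists. Some genes that the rule names are not reported here. The members, lists and rules were chosen with earlier results of these data known.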

Additional observations from a re-analysis of the deposited data

How the results depend on the processing

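KIT, ERBB3 and CSF1R stayed on the black side under every alternative run, and 0 receptor unigenes passed 2-fold under any. The 4-fold rule, the minimum of 5 RPM and the pseudocount of 5 could only keep that count at 0. Nor could the pseudocount of 0.1, the interval rule or dropping the minimum raise it, since no receptor unigene had an RPM ratio above 1.89. A pseudocount also cannot change the side on which a receptor lies. Each alternative scaling lowered every black over yellow ratio. Scaling moved the log2 differences by more than counting error, by its construction as 1 factor on all genes. They were 0.29 (KIT), 0.34 (ERBB3) and 0.71 (CSF1R) with TMM, 0.33, 0.38 and 0.75 with median of ratios, 0.31, 0.36 and 0.73 without the 2 most abundant unigenes, and 0.29, 0.34 and 0.71 without the 100 most abundant. In the same order of scalings the median of the other receptor tyrosine kinases (0.24) was 0.09, 0.12, 0.11 and 0.09, and that of ligands and signalling genes together (0.31) was 0.14, 0.18, 0.16 and 0.16. A pseudocount of 5 gave 0.12 for the receptor list. Pseudocounts, the most abundant unigene, BLASTP naming and an E-value of at most 1e-20 moved no receptor beyond counting error. The E-value limit could not, since all 5 receptor unigenes lie far below it. Nor could the most abundant unigene for KIT, which has only 1.

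Genes at least 2-fold apart (35) were 86 with a pseudocount of 0.1, 11 with 5, 3 at 4-fold and 20 at a minimum of 5 RPM. Unigenes (345) were 1411, 53, 13 and 140 in that order, 195 by the interval rule and 636 without the 100 most abundant. The split of unigenes, 249 higher in black and 96 higher in yellow, was 129 and 172 with TMM scaling, and that of genes, 30 and 5, was 22 and 7. The count of receptor intervals above 1, 3 under each scaling, and the list counts with TMM scaling were added after seeing the data. No paired analysis was possible because each colour has 1 library. Depth limits what can be said of c98518_g1, ERBB4, AKT1, HDC, NCF1 and the PDGFRA unigenes c95703_g1 and c95703_g3, each with under 100 reads per library. It also limits the melanophore markers in the yellow library, with 47 reads for PMEL, 13 for TYRP1, 10 for SLC24A5 and 5 for TYR. Of these TYR did not pass the minimum.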
